A study of Mus musculus with 19 samples.

Results

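The liver library was 1 of 7 RNA-Seq libraries made from tissues of male C57BL/6J WT mice for which no treatment is named, the others being heart, tibialis anterior muscle, brain, white adipose tissue, brown adipose tissue (BAT) and small intestine, each with 1 library. The series held 19 libraries in all, and the remaining 12 came from inguinal white adipose tissue (iWAT) and BAT of 5-month-old male WT and MCK-Musclin mice that had been kept at 8 °C for 1 week. MCK-Musclin mice carry a Musclin transgene driven by the muscle creatine kinase promoter, and they enter no comparison here. The liver sample is the single library with that tissue label, and it was set against each of the other 6 tissues, gene by gene. The exact age and feeding state of the 7-tissue mice, the depot of the white adipose tissue, and whether a library came from 1 mouse or from a pool, are not given in the sources used here. With 1 library per tissue there was no replicate check, so no p-value is given and all differences below describe these 7 libraries.

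Most of the liver is made of hepatocytes, which secrete the bulk of the plasma proteins, take up and release glucose, detoxify ammonia as urea, break down amino acids, make bile acids from cholesterol and modify drugs and steroids before they are excreted. Hepatocytes differ along the lobule, from periportal cells that see oxygen-rich blood to pericentral cells near the draining vein. Kupffer cells (the resident macrophages), sinusoidal endothelial cells, stellate cells and the cholangiocytes of the bile ducts make up much of the rest.

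Levels are FPKM, the fragments of a gene per kilobase of its exons and per unit of library size, as deposited. FPKM is scaled by gene length, so levels of different genes can be set side by side. A ratio between tissues was taken after adding 1 FPKM to both values, which understates the difference for genes of low level. A gene was called higher in liver, or liver-led, when its ratio to the highest of the other 6 tissues was at least 10, and lower when the ratio of the lowest of the other 6 tissues to liver was at least 4. Genes with a mean of at least 1 FPKM over the 7 libraries were tested in this way, 14692 of 55573. RNA was taken from whole tissue, so more cells of a type and more RNA per cell cannot be told apart.

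The hepatocyte markers were present in the library labelled liver. *Alb*, which encodes albumin, had the highest FPKM of all genes in liver, at 22399, and had 36.2 in white adipose tissue, 11.6 in tibialis anterior muscle, 3.65 in heart, 1.23 in brown adipose tissue, 1.06 in small intestine and 0.271 in brain. *Apoa1*, the main protein of high-density lipoprotein, had 5484 in liver, 2079 in small intestine and at most 6.81 in the other 5. *Ttr*, the carrier of thyroxine and retinol-binding protein, had 2882 in liver and 424 in brain, where the choroid plexus makes it, with at most 7.21 elsewhere. All 3 markers were highest in liver, but only *Alb* was at least 10-fold above every other tissue.

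The summed FPKM of the liver library was 558144, within the range of the 7 libraries from 393682 in brain to 711437 in BAT. The steps between low values gave a depth of the liver library of 0.966 to 1.11 times that of the others. That search took only ratios close to 1, so it could not have found a large difference in depth. Genes encoded by the mitochondrial genome took 18.97% of the liver sum, against 13.3% in white adipose tissue and 53.83% in BAT, which sets the scale of every other gene in those libraries. RNA from the white adipose tissue was isolated with a kit and that from liver and the other tissues with TRIzol. As a yardstick of spread within a tissue, the highest of 3 WT cold libraries was at least 10-fold above the lowest for 39 of 12137 genes (0.321%) in iWAT and for 6 of 10845 (0.0553%) in BAT. Across the 14692 genes, Spearman's rho of liver with another tissue was highest for BAT at 0.657 and white adipose tissue at 0.638 and lowest for brain at 0.34, with genes not being independent replicates.

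The 10-fold rule was met in liver by 288 of the 14692 genes (1.96%), and liver was the highest tissue for 1252 (8.52%). By the same rule brain had 626 such genes, small intestine 510, tibialis anterior muscle 73, heart 39, white adipose tissue 32 and BAT 6. The liver-led genes held 30.32% of the summed FPKM of liver, and the corresponding share was 28.2% for tibialis anterior muscle, 19.79% for small intestine and 12.04% for brain. Their median level in liver was 123 FPKM, the lowest was 9.69 FPKM, and 265 were protein-coding. In 160 of the 288 all other tissues were under 1 FPKM, and 22 were listed at 0 in all 6. The ratio to the next tissue was 100 or more for 105 genes, and the median ratio was 56.9. The counts for gene lists below are to be read beside the shares of 1.96% and 8.52% over all genes tested.

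**Figure D1:**
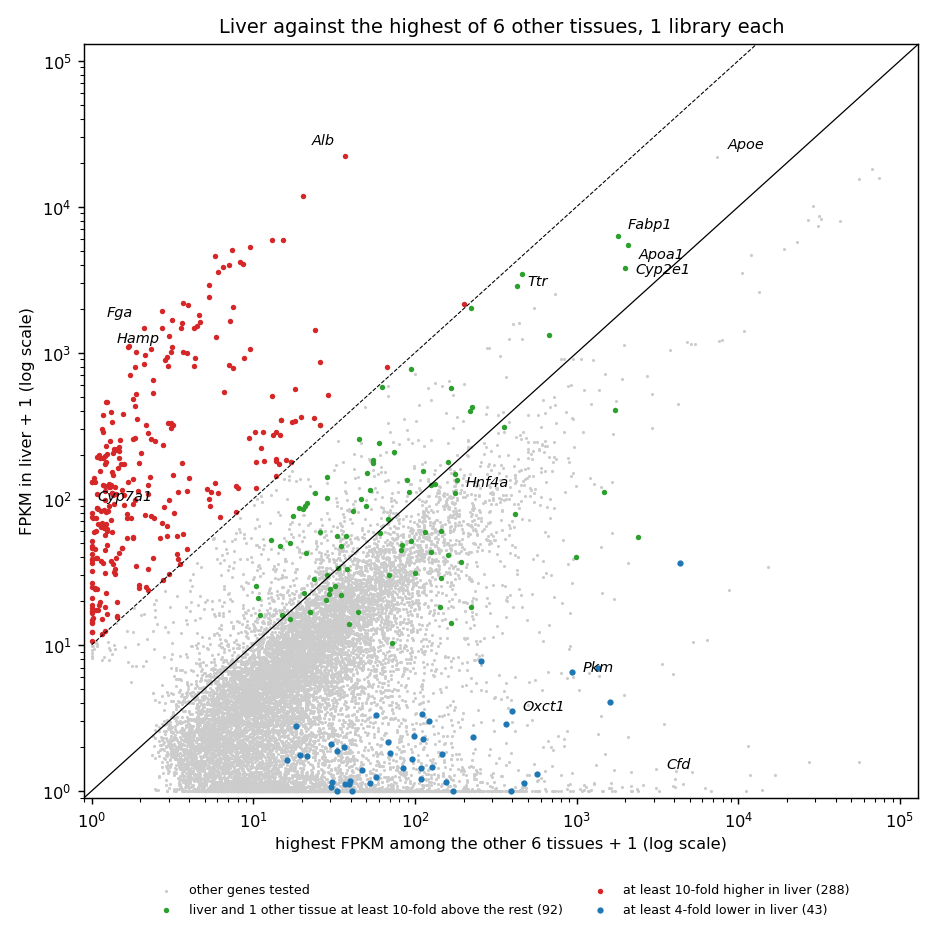
FPKM + 1 in liver against the highest FPKM + 1 among the other 6 tissues, both on log scales, with 1 point per tested gene. Red points are the 288 genes at least 10-fold higher in liver, which lie above the dashed line, green points the 92 genes for which liver and 1 other tissue stood at least 10-fold above the rest (3 of them also red), and blue points the 43 genes at least 4-fold lower in liver, while the solid line marks equal values.

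The highest ratios belonged to secreted proteins. *Mup14*, a major urinary protein, had 4617 FPKM in liver and at most 4.802 in white adipose tissue, a ratio of 796. *Fga*, the alpha chain of fibrinogen, had 1476 in liver and at most 1.10 in white adipose tissue, a ratio of 704. *Hpx*, which binds free heme, and *Ambp*, the precursor of alpha-1-microglobulin and bikunin, followed with 1119.7 and 1099 FPKM in liver and less than 1 FPKM in each of the other 6 tissues. *Alb* had a ratio of 603. In all, the 20 highest ratios lay between 470.4 and 796 and included 7 Mup genes and the 5 alpha-1-antitrypsins (*Serpina1a* to *Serpina1e*).

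Known factors of hepatocyte transcription include the homeobox protein HNF1, the nuclear receptor HNF4, the forkhead proteins FOXA and the C/EBP family, and the sequences before the start of some of the genes that led in liver are shown here for their motifs. The 250 bases before the start were read from RefSeq promoters on GRCm38.p6, 5′ to 3′ on the strand of the gene, and letters matching GTTAATNAT (HNF1), CAAAGTCCA or CAAAGGTCA (HNF4), TGTTTAC (FOXA), TTGCNNAA (C/EBP) or TATAAA (the TATA box) on either strand are in capitals, and the FOXA search also took TGTTTGC. The first group is made of plasma proteins at least 10-fold higher in liver, with *Alb* at chr5:90460620-90460869 on the plus strand, *Fga* at chr3:83025903-83026152 on the plus strand, *Serpina1a* at chr12:103863620-103863869 and *Serpina1e* at chr12:103956898-103957147, both on the minus strand.
Alb: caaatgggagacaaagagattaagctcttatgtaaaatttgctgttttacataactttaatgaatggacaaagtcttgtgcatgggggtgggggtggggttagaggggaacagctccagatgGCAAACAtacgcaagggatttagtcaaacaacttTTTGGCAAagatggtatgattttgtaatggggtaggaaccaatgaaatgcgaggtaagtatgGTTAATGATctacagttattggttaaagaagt
Fga: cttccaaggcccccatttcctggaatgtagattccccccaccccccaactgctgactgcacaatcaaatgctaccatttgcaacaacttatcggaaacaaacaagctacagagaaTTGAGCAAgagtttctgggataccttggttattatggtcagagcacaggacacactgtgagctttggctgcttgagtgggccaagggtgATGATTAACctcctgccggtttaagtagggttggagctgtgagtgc
Serpina1a: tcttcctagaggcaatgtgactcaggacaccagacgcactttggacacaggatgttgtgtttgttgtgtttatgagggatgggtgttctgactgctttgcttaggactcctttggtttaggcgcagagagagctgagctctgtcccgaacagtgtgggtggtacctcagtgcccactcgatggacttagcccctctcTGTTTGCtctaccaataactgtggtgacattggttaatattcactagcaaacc
Serpina1e: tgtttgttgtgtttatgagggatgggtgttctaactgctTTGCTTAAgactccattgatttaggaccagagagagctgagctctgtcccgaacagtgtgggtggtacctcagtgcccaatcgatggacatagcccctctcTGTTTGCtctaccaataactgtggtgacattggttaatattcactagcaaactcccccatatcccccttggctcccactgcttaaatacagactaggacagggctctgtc
In *Alb* a FOXA match lay 128 bases before the start, a C/EBP match 94 and an HNF1 match 32. *Fga* held a C/EBP match 135 bases and an HNF1 match 46 bases before the start. The near-identical *Serpina1a* and *Serpina1e* held the same FOXA match in near-identical flanking letters, 53 bases before the start in the former and 110 in the latter, whose annotated start lies further on, and a C/EBP match, at 211, was in *Serpina1e* and not in *Serpina1a*.

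The second group is made of genes whose next tissue after liver was small intestine. *Apoa1* and *Fabp1* were high in both tissues, whereas *G6pc* was at least 10-fold higher in liver. The group holds *Apoa1* at chr9:46228380-46228629 on the plus strand, *Fabp1* at chr6:71199629-71199878 on the plus strand and *G6pc* at chr11:101367466-101367715 on the plus strand.
Apoa1: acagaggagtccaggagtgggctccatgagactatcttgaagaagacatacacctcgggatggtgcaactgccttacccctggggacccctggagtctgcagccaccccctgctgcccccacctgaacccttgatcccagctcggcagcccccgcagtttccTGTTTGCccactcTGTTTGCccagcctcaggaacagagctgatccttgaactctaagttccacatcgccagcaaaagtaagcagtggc
Fabp1: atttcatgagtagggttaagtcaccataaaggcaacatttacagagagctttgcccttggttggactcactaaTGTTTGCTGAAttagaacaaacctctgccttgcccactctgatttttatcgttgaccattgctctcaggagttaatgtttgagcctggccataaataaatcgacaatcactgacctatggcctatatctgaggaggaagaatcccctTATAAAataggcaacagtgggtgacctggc
G6pc: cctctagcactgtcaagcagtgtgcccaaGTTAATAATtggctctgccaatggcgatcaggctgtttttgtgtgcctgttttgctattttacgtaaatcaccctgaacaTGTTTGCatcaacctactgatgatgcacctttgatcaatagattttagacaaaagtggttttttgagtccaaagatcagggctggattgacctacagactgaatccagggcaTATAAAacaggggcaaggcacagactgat
*Apoa1* held FOXA matches 88 and 75 bases before the start. *Fabp1*, the liver fatty acid-binding protein, held a FOXA match at 177 that overlapped a C/EBP match at 174, and a TATA box at 30. *G6pc*, the catalytic subunit of glucose-6-phosphatase, held an HNF1 match at 221, a FOXA match at 141 and a TATA box at 29.

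Promoters were found for 204 of the 288 liver-led genes, with 252 starts. The HNF1 letters were in 7.14% of these starts, against 0.737% of all 32851 promoters of the same length, and the HNF4 letters in 5.16% against 0.807%. FOXA letters were in 18.3% against 7.29%, C/EBP letters in 17.9% against 9.56%, and a TATA box in 20.6% against 12.4%. At least 1 of the 4 factor motifs was in 39.3% of the starts of liver-led genes, against 16.8% of all promoters and 13.1% of those of the other genes tested. Each start was counted, those of near-identical copies included. The mean GC content was 48.2% for the liver-led genes, 53.2% for all promoters and 59.7% for the other genes tested. GC content thus moved with the motif shares, and its part in them was not tested. The remaining liver-led starts held none of the 4 factor motifs in this window, *Mup3*, *Tat* and *Hamp* among them.

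Plasma proteins stood furthest apart. Of the 26 tested genes for plasma carriers and protease inhibitors, 20 were at least 10-fold higher in liver and 25 were highest there, with a median log2 ratio to the highest other tissue of 8.21, where the median over all genes tested was -1.64. Together they held 11% of the summed FPKM of liver. *Alb* alone took 4.01%. *Gc*, the vitamin D-binding protein, had 2133 FPKM in liver and at most 2.95 in white adipose tissue. *Ahsg*, or fetuin-A, an inhibitor of mineral precipitation, had 1003 in liver and 2.66 in white adipose tissue, 1.25 in tibialis anterior muscle, 1.12 in heart, 0.106 in small intestine, 0.0387 in brown adipose tissue and was listed at 0 in brain. *Apoh*, a phospholipid-binding plasma glycoprotein, had 1006 in liver and less than 1 FPKM in each other tissue.

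The 6 carriers short of 10-fold included 4 with a high level in fat. *Rbp4*, the carrier of retinol, had 2033 FPKM in liver and 221 in white adipose tissue. *Trf*, transferrin, had 1238 in liver, 379.9 in white adipose tissue and 42.7 in brain. *Cp*, the ferroxidase ceruloplasmin, had 249.96 in liver and 103 in white adipose tissue. The exception to the lead of liver was *Hp*, the hemoglobin scavenger haptoglobin, with 1057 in white adipose tissue, 908 in liver and 277 in BAT. In the 3 WT cold iWAT libraries *Hp* had 259 ± 62.7 FPKM (SD, n = 3), so it was also high in fat in other libraries. *Serpina7*, the thyroxine-binding globulin, with 8.89 in liver and listed at 0 in all others, fell just short of 10-fold through the 1 FPKM added, and *Serpina6*, the corticosteroid-binding globulin, was liver-led with 139.

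The Mup family of major urinary proteins, small lipocalins that bind pheromones, took a larger share of the liver library than albumin. The 22 Mup genes summed to 55385 FPKM in liver, or 9.92% of its total, against 98.3 FPKM in tibialis anterior muscle, 75.04 in white adipose tissue, 33.0 in heart and at most 11.4 in the other 3. All 19 tested members were at least 10-fold higher in liver. *Mup3* was the highest with 11803 FPKM and *Mup7* the next with 5948, while *Mup20*, also called darcin, a male pheromone, had 2057. The 5 alpha-1-antitrypsin genes summed to 19806 FPKM in liver, or 3.55%, and to at most 31.0 in any other tissue. Members of both families are near-identical copies, so the split of fragments between them is uncertain and the sums are the firmer values.

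**Figure D2:**
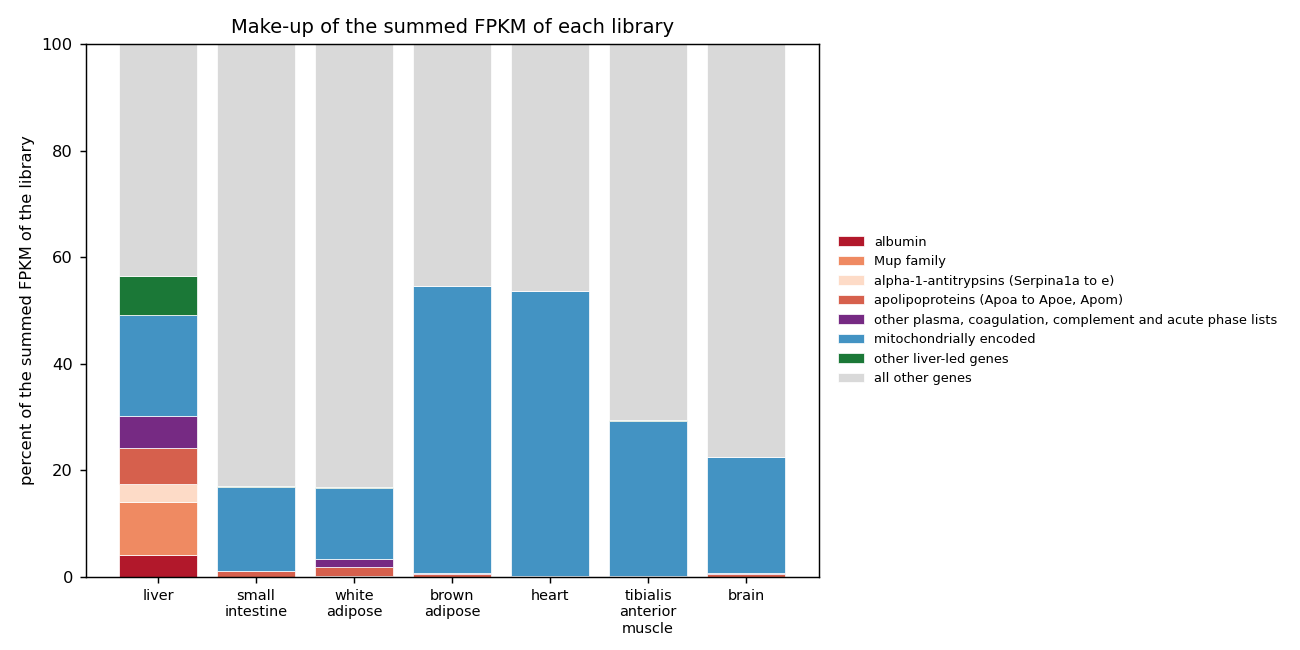
Percent of the summed FPKM of each library held by albumin, the Mup family, the alpha-1-antitrypsins, the apolipoproteins, other genes of the plasma protein lists, mitochondrially encoded genes, other liver-led genes and all remaining genes, with 1 bar per library. In liver, albumin (4.01%), Mup (9.92%), alpha-1-antitrypsins (3.55%) and apolipoproteins (6.72%) are visible bands, whereas in heart and BAT the mitochondrial band takes over 50%.

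Of the 24 genes for coagulation and fibrinolysis, 19 were at least 10-fold higher in liver, with a median log2 ratio of 6.26. The 3 fibrinogen chains were close to each other in liver, at 1476 FPKM for *Fga*, 1066 for *Fgb* and 1587 for *Fgg*, and their sum of 4129 compared with 4.78 in white adipose tissue, the next highest. The exons of *Fgg* overlap another annotated gene, and counting did not use strand. *F2*, prothrombin, had 459 in liver and at most 0.231 in white adipose tissue. *Plg*, the zymogen of the clot-dissolving enzyme plasmin, had 957 in liver and at most 1.13 in white adipose tissue. *Serpinc1*, antithrombin, had 161 in liver and less than 1 FPKM in each other tissue. Other members of the cascade had 43.7 FPKM for the kallikrein precursor *Klkb1*, 52.9 for *F7*, 232 for *F10* and 304 for protein C (*Proc*).

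Of the other 5 genes of that list, 4 were higher in white adipose tissue than in liver. *F8*, which in liver is made by sinusoidal endothelium, had 4.82 FPKM in liver and 2.45 in white adipose tissue. *Vwf*, its carrier, had 0.745 in liver, the lowest of the 7 tissues, and 15.1 in white adipose tissue. *Thbd*, thrombomodulin, was likewise lowest in liver with 0.607 and highest in white adipose tissue with 57.4. *F3*, tissue factor, had 2.30 in liver and 46.5 in white adipose tissue, and *Pros1*, protein S, had 23.2 in liver and 27.1 in white adipose tissue.

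Of 22 complement genes tested, 10 were at least 10-fold higher in liver and 18 were highest there. The terminal components *Hc*, *C8a*, *C8b*, *C8g* and *C9*, which assemble the membrane attack complex, were among the 10, and *C6* was not, with *C8b* at 285 FPKM in liver and at most 0.175 in tibialis anterior muscle, *C9* at 261 and at most 0.859 in white adipose tissue, and *Hc*, which encodes C5, at 212 and at most 0.476 in tibialis anterior muscle. *Mbl2*, a mannose-binding lectin, had 177 in liver and was below 1 FPKM in the others. *C3*, at the centre of the cascade, was the most abundant with 2027 in liver, but white adipose tissue had 540.1 and BAT 129. *C4b* had 177 in liver and 159.5 in white adipose tissue, too close to tell apart with 1 library each. *C1qa*, made by macrophages, had 23.6 in liver and 94.8 in white adipose tissue. *Cfd*, or adipsin, a product of adipocytes, had 0.423 in liver and 3090.2 in white adipose tissue.

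Of 12 tested acute phase genes, 5 were at least 10-fold higher in liver, *Fgb* being 1 of them. *Saa4*, the constitutive serum amyloid A, had 393 FPKM in liver and the inducible *Saa1* and *Saa2* had 84.9 and 122, and these copies are near-identical. *Saa1* also had 18.1 in small intestine. *Orm1*, alpha-1-acid glycoprotein, had 424 in liver and 48.0 in white adipose tissue. The strongly inducible *Saa3* and *Lcn2* were low in liver, with 4.47 and 5.37 FPKM. *Lbp*, the lipopolysaccharide-binding protein, was higher in white adipose tissue (113) than in liver (39.2).

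Lipoprotein genes held 6.95% of the liver sum, yet only 8 of the 23 were at least 10-fold higher in liver, and 6 were shared with small intestine, the other tissue that assembles lipoproteins. *Apoe* was the second most abundant gene of liver at 21983 FPKM, but it had 7333 in white adipose tissue, 3262 in BAT and 1756 in brain. *Apoa2*, by contrast, had 5873 in liver and at most 11.999 in white adipose tissue. *Apob*, the structural protein of very low-density lipoprotein and chylomicrons, had 184 in liver and 53.7 in small intestine, and at most 0.683 in the other 5. *Mttp*, which loads lipid on to *Apob*, was higher in small intestine (412) than in liver (77.1), and so was *Apoa4*, with 2406 in small intestine and 53.8 in liver. Exons of *Mttp* and of *Apoa4* overlap other annotated genes.

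Genes that act on lipoproteins in plasma divided by tissue. *Lipc*, hepatic lipase, had 70.8 FPKM in liver and less than 1 FPKM in each other tissue, and *Lcat*, which esterifies cholesterol on high-density lipoprotein, had 121 in liver and 6.87 in brain. *Lpl*, the lipase of fat and muscle, had 5.13 in liver, 1369.6 in white adipose tissue and 533 in heart. *Angptl4*, an inhibitor of *Lpl*, was highest in BAT with 78.9 and had 16.4 in liver. *Scarb1*, a receptor for high-density lipoprotein, had 36.5 in liver and 49.8 in white adipose tissue.

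**Figure D3:**
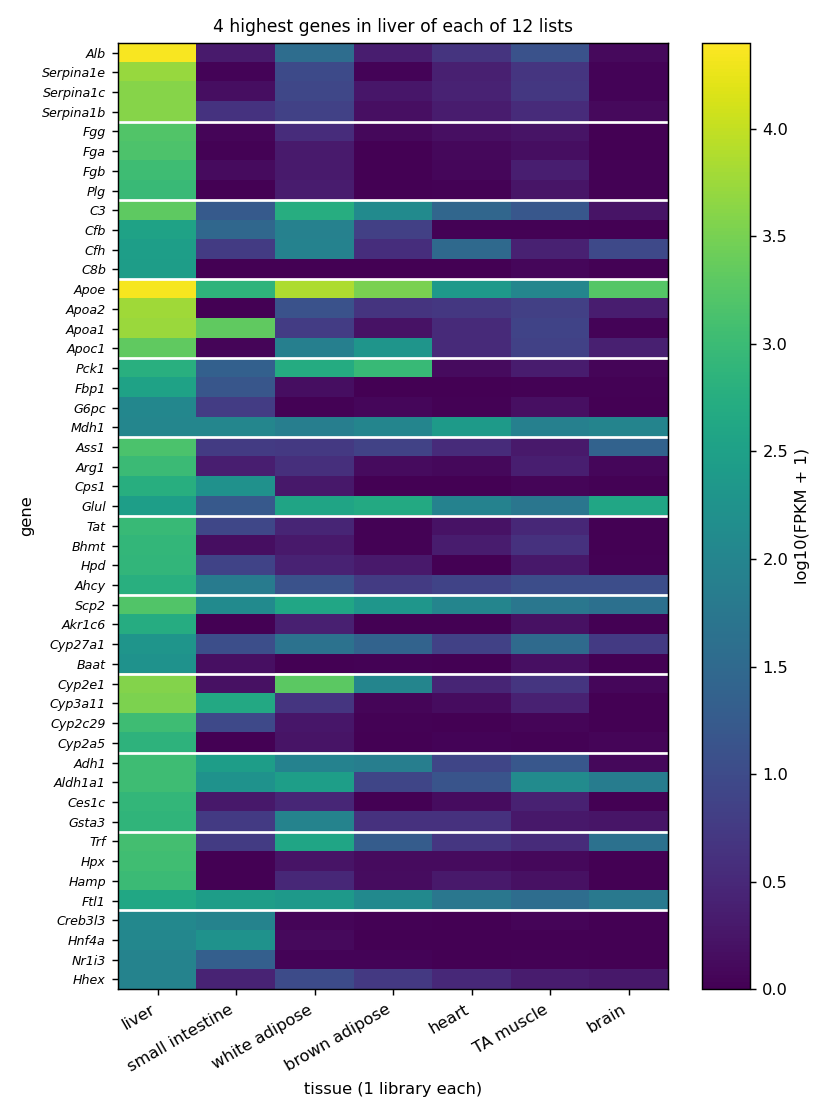
Levels as log10(FPKM + 1) in the 7 libraries for the 4 genes with the highest FPKM in liver in each of 12 lists, separated by white lines: plasma carriers, coagulation, complement, lipoprotein, gluconeogenesis, urea cycle, amino acid breakdown, bile acid synthesis, cytochrome P450, conjugation, iron and transcription factors. *Alb* and *Apoe* are the brightest liver cells, the small intestine column is bright for *Apoa1*, *Cps1*, *Cyp3a11* and *Hnf4a*, and the white adipose column for *C3*, *Apoe*, *Pck1*, *Cyp2e1* and *Trf*.

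Of 9 gluconeogenesis genes, *G6pc* and *Fbp1* were at least 10-fold higher in liver. *G6pc* had 108 FPKM in liver and 5.08 in small intestine, 0.509 in tibialis anterior muscle, 0.176 in brown adipose tissue, 0.0506 in white adipose tissue, 0.0471 in heart and 0.0238 in brain. *Fbp1*, the liver fructose bisphosphatase, had 343 in liver and 13.9 in small intestine. *Pck1*, which commits carbon to gluconeogenesis in liver and to glycerol synthesis in fat, had 604 in liver, 919.9 in BAT and 510.3 in white adipose tissue. *Pcx*, pyruvate carboxylase, had 86.2 in liver and 231 in white adipose tissue.

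For glucose uptake and glycolysis, liver and the other tissues held different members of the same families. The liver forms included *Slc2a2* (GLUT2), *Pklr*, *Gys2* and *Pygl*, and small intestine shared some of them. *Slc2a2* had 88.2 FPKM in liver and 48.7 in small intestine, and *Pklr*, the liver pyruvate kinase, had 134 and 88.0, with less than 3 FPKM for both in the other 5. *Gys2*, liver glycogen synthase, had 118 in liver and 9.38 in BAT. *Pygl*, liver glycogen phosphorylase, had 109 in liver, 71.4 in BAT and 58.5 in white adipose tissue. Of the 14 genes tested for liver glucose, fructose and glycogen handling, 2 were at least 10-fold higher in liver (*Gckr* and *Gys2*), 10 were highest there and 4 were shared with small intestine.

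Of the 15 counterparts of these enzymes, none was highest in liver and 9 were lowest there, where 21.2% of all genes tested were lowest in liver. Their median log2 ratio to the highest other tissue was -5.78. *Pkm*, the muscle and brain pyruvate kinase, had 5.53 FPKM in liver and between 125 in white adipose tissue and 934 in tibialis anterior muscle elsewhere. *Slc2a4*, the insulin-responsive GLUT4, had 0.378 in liver and 106 in muscle. *Hk2*, a low-Km hexokinase, had 0.388 in liver and 56.4 in muscle, and *Hk1* had 1.35 in liver and 54.8 in brain. *Pygm*, muscle phosphorylase, had 0.494 in liver and 1324 in muscle. *Aldoa* kept 35.4 FPKM in liver, the lowest of the 7 tissues, where muscle had 4373. The exons of *Pklr*, of *Pkm* and of *Aldoa* each overlap another annotated gene. In liver the liver form of each pair had more FPKM than its counterparts, for example 134 for *Pklr* against 5.53 for *Pkm* and 118 for *Gys2* against 0.764 for *Gys1*.

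**Figure D4:**
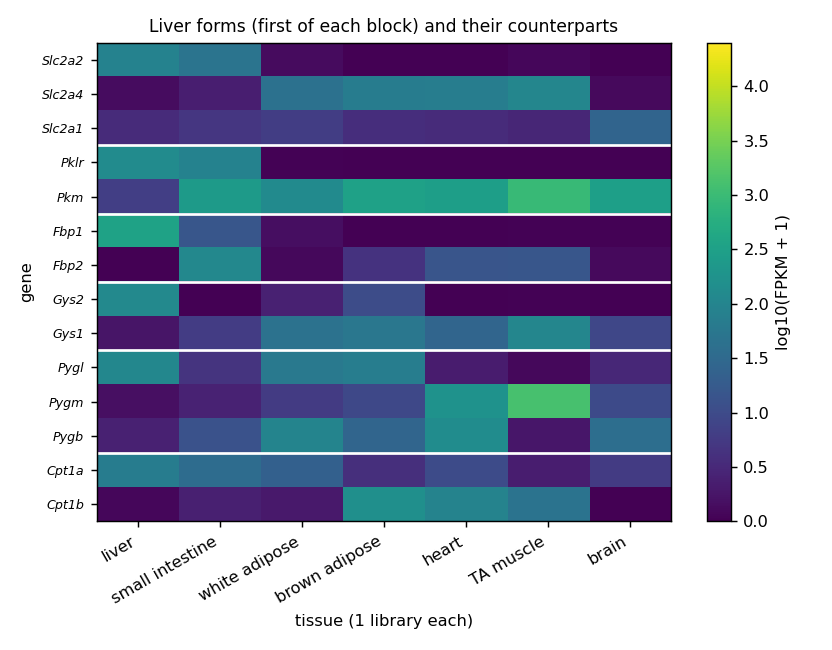
Levels as log10(FPKM + 1) in the 7 libraries for 6 blocks of related genes, the liver form first and its counterparts under it. In each block the liver column is brighter for the first gene than for the others, with *Pkm* between 125 and 934 FPKM outside liver and 5.53 in liver.

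Of 11 tested genes of the urea cycle and ammonia handling, 3 were at least 10-fold higher in liver and 3 were shared with small intestine. *Cps1*, the entry enzyme, had 568 FPKM in liver and 166 in small intestine, and *Otc*, the next, had 176 and 54.1, with less than 1 FPKM for both in the other 5. The later enzymes were liver-led, with *Ass1* at 1427 in liver and at most 22.9 in brain, *Asl* at 181 and at most 12.8 in white adipose tissue, and *Arg1*, which releases urea, at 995 and at most 2.88 in white adipose tissue. *Gls2*, the liver glutaminase, had 62.6 in liver and 9.28 in brain. *Glul*, glutamine synthetase, was not liver-led, with 287 in liver, 465 in BAT, 394 in brain and 377 in white adipose tissue.

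Of 34 genes of amino acid breakdown, 21 were at least 10-fold higher in liver and 29 were highest there, with a median log2 ratio of 4.93. In the tyrosine pathway *Tat* was at 923 FPKM in liver and 7.74 in small intestine, *Hpd* at 782 and at most 6.53 in small intestine, and *Hgd* at 128 and at most 0.0112 in heart. The last enzyme of that pathway, *Fah*, was less restricted, with 179 in liver and 35.04 in white adipose tissue. For tryptophan, *Tdo2* had 319 in liver and 2.18 in white adipose tissue. For histidine, *Hal* had 38.4, *Uroc1* 81.6 and *Amdhd1* 35.3 in liver, with less than 1 FPKM in each other tissue. In the methionine cycle the liver form of methionine adenosyltransferase, *Mat1a*, had 333 in liver and less than 1 FPKM elsewhere, while the general form *Mat2a* was lowest in liver at 19.4 and highest in white adipose tissue at 52.2. *Cdo1* and *Csad*, which lead from cysteine to taurine, were higher in white adipose tissue, with 419.8 and 63.1, than in liver, with 265 and 32.3.

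*Cyp7a1*, the rate-limiting enzyme of bile acid synthesis, had 78.5 FPKM in liver and was listed at 0 in the other 6 tissues. *Cyp8b1*, which sets the share of cholic acid, had 83.6 and less than 0.1 FPKM in each other tissue. The conjugating enzymes *Slc27a5* and *Baat* had 130.1 and 172 in liver, with the former listed at 0 in the other 6. Of the 16 tested genes 8 were at least 10-fold higher in liver. The peroxisomal genes that also serve fatty acids were broader, such as *Scp2* with 1578 in liver and 404 in white adipose tissue. *Cyp46a1*, the cholesterol hydroxylase of neurons, had 87.3 in brain and 1.77 in liver.

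*Slc10a1* (NTCP), the uptake transporter of hepatocytes, had 119.8 FPKM in liver and was listed at 0 or below 0.3 in the others, and *Abcb11*, the bile salt export pump, had 80.0 in liver and at most 0.232 in white adipose tissue. *Slc10a2* (ASBT), the uptake transporter of the intestine, had 71.5 in small intestine and 9.31 in liver, and *Slc51a* and *Slc51b*, the basolateral exporter, had 97.4 and 423 in small intestine and were listed at 0 in liver. *Abcc2*, which exports bilirubin conjugates, was in both, with 114 and 52.0. *Abcg5* and *Abcg8*, the sterol exporter, were also in both, at 24.2 and 21.6 in liver and 31.2 and 19.5 in small intestine. Exons of these genes overlap each other, and counting did not use strand. Of the 21 transporters, 5 met the 10-fold rule for liver and 4 were shared with small intestine, namely *Abcc2*, *Abcg5*, *Abcg8* and *Slc10a2*.

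Of 39 tested cytochrome P450 genes of families 1 to 4, which oxidise drugs, steroids and fatty acids, 19 were at least 10-fold higher in liver, 7 were shared with small intestine and 29 were highest in liver. *Cyp2e1*, the ethanol-inducible form, was the most abundant at 3775 FPKM in liver, but white adipose tissue had 1990.3 and BAT 101. It had 1420 ± 207 FPKM (SD, n = 3) in the WT cold iWAT libraries, so the high level in white fat was not confined to 1 library. *Cyp3a11*, the main form of the drug-metabolising 3A group, had 3463 in liver and 458 in small intestine. *Cyp1a2* had 462 in liver and at most 0.253 in white adipose tissue, and *Cyp2c29* had 1066 in liver and 8.48 in small intestine. Some members belonged to small intestine, such as *Cyp2c65* with 206 there and *Cyp2c66* with 83.6, both listed at 0 in liver. Members of the 2c, 2d, 3a and 4a groups are close copies, and the split between them is uncertain.

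Of 45 tested genes of conjugation and alcohol metabolism, 10 met the 10-fold rule and 36 were highest in liver. *Ces1c*, a plasma carboxylesterase, had 809.9 FPKM in liver and at most 1.96 in white adipose tissue, *Sult2a8*, a sulfotransferase, 429 and at most 0.857 in white adipose tissue, and *Ugt2b1*, a glucuronosyltransferase, 155 and less than 1 FPKM in each other tissue. *Adh1*, alcohol dehydrogenase, had 1080.0 in liver and 278 in small intestine, and *Aldh1a1* had 1079 in liver and 288 in white adipose tissue. *Gsta1*, a glutathione transferase, was intestinal, with 667 there and 5.55 in liver.

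Ketone bodies are made in liver and burned elsewhere. Of 7 tested genes for their synthesis and use, 1 was at least 10-fold higher in liver, 2 were highest and 2 lowest there, and the median log2 ratio of liver to the highest other tissue was -0.65. The genes of that list summed to 633 FPKM in heart, 395 of it from *Oxct1*, and to 553 in liver, 2.53 of it from *Oxct1*. These sums do not separate the synthesis from the use of ketone bodies. *Oxct1*, the enzyme needed to use them, had 2.53 FPKM in liver and between 105 in brain and 395 in heart elsewhere, and its ratio of 30.02 from the lowest other tissue to liver was the largest of the genes lower in liver. The exons of *Oxct1* overlap another annotated gene.

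Among the genes of fatty acid oxidation, 3 of 26 were at least 10-fold higher in liver and 12 were highest there. Over all genes tested these shares were 1.96% and 8.52%. *Cpt1a*, the liver form of the carnitine shuttle, had 69.6 FPKM in liver and 35.2 in small intestine, and the muscle form *Cpt1b* had 0.208 in liver and 154 in BAT. *Acadl* had 137 in liver and 1199.7 in BAT, and *Hadhb* had 24.5 and 345. *Acaa1b*, a thiolase of the peroxisomal route, had 223 in liver and at most 10.1 in white adipose tissue. *Fabp1* was the most abundant of the list at 6259 in liver and 1813 in small intestine.

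Of 32 genes for fat and cholesterol synthesis 13 were highest in liver, against 8.52% of all genes tested. At least 10-fold higher there were 2 of the 32, against 1.96%. Those 2 were *Pemt*, which makes phosphatidylcholine from phosphatidylethanolamine, with 115 FPKM in liver and at most 4.19 in white adipose tissue, and *Elovl2*, which elongates polyunsaturated fatty acids, with 54.2 and at most 1.93 in brain. *Fasn*, fatty acid synthase, had 52.7 in liver, 121 in white adipose tissue and 71.7 in BAT, and *Scd1*, a desaturase, had 1040.2, 3794 and 1148. *Pnpla3* was low in liver, at 0.255, and had 78.7 in white adipose tissue.

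Of 28 transcription factors known for roles in liver, 1 was at least 10-fold higher there, against 1.96% of all genes tested. It was *Onecut1* (HNF6), with 63.0 FPKM and at most 0.138 in white adipose tissue. Liver was the highest tissue for 12 of the 28, against 8.52% of all genes tested. *Hnf4a* had 175 in small intestine and 109 in liver, and less than 1 FPKM in the other 5. *Nr1h4*, the bile acid receptor FXR, had 58.0 in liver and 25.01 in small intestine. *Nr1i3*, the xenobiotic receptor CAR, had 92.7 in liver and 20.5 in small intestine, and its exons overlap another annotated gene. *Hnf4g* separated the pair, with 166 in small intestine and listed at 0 in all the others. *Cebpa* was shared with fat, at 79.4 in liver, 179 in white adipose tissue and 139 in BAT. *Hhex*, a factor of early liver development, had 90.1 in liver and 9.05 in white adipose tissue.

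Of 23 tested hormones and growth regulators that liver secretes, 6 were at least 10-fold higher in liver and 17 were highest there. *Fgl1*, or hepassocin, had 329 FPKM in liver and at most 2.099 in small intestine, and *Lect2*, a chemotactic hepatokine, had 73.0 and at most 0.0664 in tibialis anterior muscle. *Inhbc* and *Inhbe*, activin subunits, were low but liver-led, with 15.98 and 14.3. *Igf1* had 254 in liver and 89.0 in white adipose tissue, and *Agt*, angiotensinogen, had 118 in liver and 105 in white adipose tissue, so that neither was liver-led by 10-fold. *Selenop*, the selenium carrier, was the most abundant at 2517 in liver, with 735 in white adipose tissue. *Fgf21* was at 0.0586 FPKM in liver and *Igf2* was listed at 0.

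Among receptors, 9 of 24 were highest in liver, against 8.52% of all genes tested. At least 10-fold higher there were 3 of the 24, against 1.96%. They were *Asgr1* and *Asgr2*, the subunits of the asialoglycoprotein receptor that clears plasma proteins, with 215 and 89.3 FPKM, and *Gcgr*, the glucagon receptor, with 47.1 in liver and less than 1 FPKM in each other tissue. The insulin receptor *Insr* had 18.1 in liver and 20.8 in white adipose tissue. *Ghr*, the growth hormone receptor, had 147 in liver and 276 in white adipose tissue. *Thra* was lowest in liver, at 6.70 against 254 in brain, while *Thrb*, the other thyroid hormone receptor, had 7.498 in liver and 11.96 in brain. Exons of *Thra* overlap those of *Nr1d1*. *Cd36*, a fatty acid transporter, had 8.79 in liver and 906 in white adipose tissue.

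*Hamp*, hepcidin, which blocks iron export, had 1005 FPKM in liver and 2.08 in white adipose tissue, 0.999 in heart, 0.551 in tibialis anterior muscle, 0.396 in brown adipose tissue and was listed at 0 in small intestine and brain. *Tfr2*, an iron sensor upstream of hepcidin, had 74.6 in liver and 5.23 in brain, and *Tmprss6*, a protease that lowers hepcidin, had 67.7 and less than 1 FPKM in each other tissue. *Hjv*, the co-receptor in the same pathway, was higher in tibialis anterior muscle (244) and heart (55.0) than in liver (25.5). *Tfrc*, the transferrin receptor, was lowest in liver at 7.58 and highest in small intestine at 38.4. The ferritin chains were in all tissues, with *Ftl1* at 425 in liver and *Fth1* at 209. Of 23 tested genes, 5 were at least 10-fold higher in liver.

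In the natriuretic peptide system, *Ostn*, which encodes Musclin, was listed at 0 in liver, as were *Nppa* and *Nppb*, the cardiac peptides. The clearance receptor *Npr3* had 0.470 FPKM in liver and 195 in white adipose tissue, and the signalling receptors *Npr1* and *Npr2* had 2.28 and 10.1 in liver. *Furin*, a protease that processes many secreted precursors, was the only member highest in liver, at 31.7 against 14.5 in white adipose tissue.

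**Figure D5:**
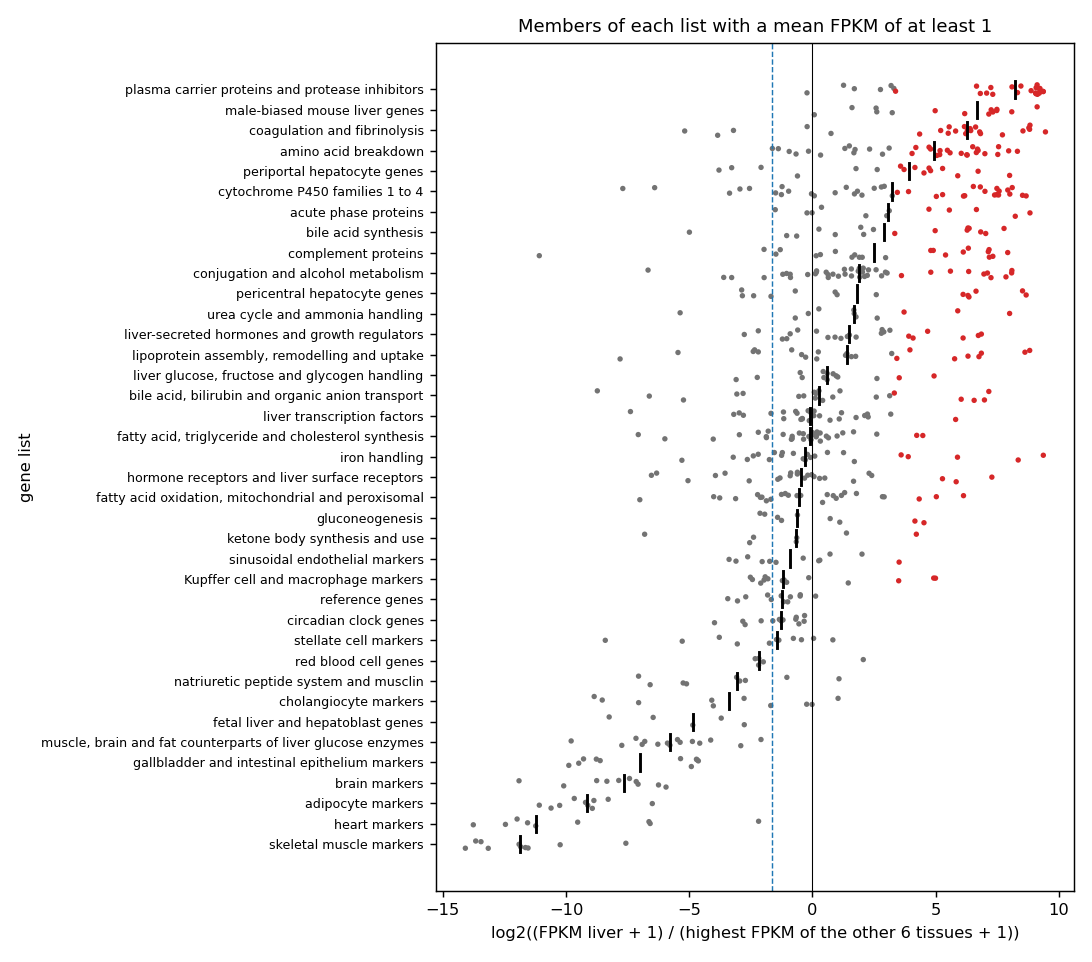
The log2 ratio of liver to the highest of the other 6 tissues, after adding 1 FPKM to both, for the tested members of each list with at least 5 tested, in order of the list median (black bar). Red points are genes at least 10-fold higher in liver, the solid line marks equal levels and the dashed line the median of all genes tested (-1.64), with plasma carriers highest at 8.21 and skeletal muscle markers lowest at -11.87.

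Both ends of the hepatocyte lobule were represented. Of 16 tested periportal genes 10 were at least 10-fold higher in liver, and of 14 tested pericentral genes 6 were. The sum of the periportal genes was 6380 FPKM and that of the pericentral genes 6364, of which *Cyp2e1* alone had 3775. These sums depend on the genes listed and do not measure the balance of the 2 zones. Pericentral *Cyp2a5* had 701 FPKM and *Gulo*, the last enzyme of vitamin C synthesis, 107. *Cyp2f2*, a periportal P450, had 505 and *Sds*, serine dehydratase, 25.6. *Rhbg*, an ammonia transporter of pericentral cells, was at 2.75, and *Lgr5*, a marker of the innermost layer, at 0.7999. Other periportal genes were epithelial genes with a higher level in small intestine, such as *Cdh1*, at 9.32 in liver and 142 in small intestine, and *Pigr*, which carries immunoglobulin A across epithelia, at 406 and 1727.

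Genes with a known sex bias in mouse liver were divided by that bias. All 14 genes of the male-biased list were highest in liver and 9 were at least 10-fold higher, such as *Cyp2d9* at 192 FPKM, *Cyp4a12a* at 198, *Slco1a1* at 171 and *Hsd3b5* at 217 in liver. Of the 15 female-biased genes, 9 were listed at 0 in liver, *Cyp2b13*, *Cyp3a41a* and *Sult2a1* among them, and 2 reached 1 FPKM. Those were *Cyp2a4*, at 4.15, a near-identical copy of *Cyp2a5*, and *Acot3*, at 1.78. The methods give the mice as male.

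Markers of the other cells of liver were detected. Of 14 genes of Kupffer cells and macrophages, 3 were at least 10-fold higher in liver. These were *Clec4f*, the defining Kupffer cell lectin, with 30.9 FPKM in liver and listed at 0 in the other 6, *Cd5l* with 53.5 and at most 0.797 in white adipose tissue, and *Vsig4* with 37.6 and at most 2.41 in white adipose tissue. *Cd68*, a macrophage gene of many tissues, had 48.6 in white adipose tissue and 21.3 in liver, and the 14 genes summed to 273 FPKM in liver and 457 in white adipose tissue. Of 12 tested sinusoidal endothelial genes, 5 were highest in liver and 1 was at least 10-fold higher, *Clec4g* with 24.0. *Stab2* had 6.12 and *Oit3* 6.04 in liver. The whole list summed to 159 FPKM in liver and 361.6 in white adipose tissue. *Pecam1*, a general endothelial gene, was lowest in liver, at 5.67 against 68.6 in white adipose tissue.

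Of 11 tested stellate cell genes 0 were at least 10-fold higher in liver and 2 were highest there. The whole list summed to 127.5 FPKM in liver, 969.7 in tibialis anterior muscle and 784.9 in white adipose tissue. Of 10 cholangiocyte genes 0 met the 10-fold rule and 1 was highest in liver. They summed to 58.7 FPKM in liver and 1716 in small intestine. *Colec11* and *Hgf*, products of stellate cells, had 21.8 and 2.59 FPKM in liver. *Lrat*, which stores retinol as ester, had 2.94 in liver and 5.74 in small intestine. Collagen *Col1a1* was at 0.532, the lowest of the 7 tissues. The cholangiocyte genes *Krt19*, *Epcam* and *Cftr* had 1.27, 0.364 and 0.0605 in liver. *Spp1*, osteopontin, had 38.8 in liver. Of the 14 genes of T, B and NK cells and neutrophils, 2 reached 1 FPKM in liver, and *Cd3e*, of T cells, was at 1.04. Hemoglobin transcripts gave 154 FPKM for *Hba-a1* in liver, between 13.3 in small intestine and 698 in white adipose tissue, and *Hba-a1* and *Hba-a2* are near-identical copies.

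Markers of other tissues were mostly low in liver. Of 10 exocrine pancreas genes 8 were listed at 0 in liver, and *Cela1* was the only one above 1 FPKM at 4.71. The sum of 10 skeletal muscle genes was 3.60 FPKM in liver and 86300 in tibialis anterior muscle, that of 10 heart genes 1.53 in liver and 37500 in heart, and that of 10 brain genes 3.26 in liver and 7243 in brain. The 10 adipocyte genes summed to 16.9 in liver and 14790 in white adipose tissue, with *Fabp4* the largest part at 9.77. Of the 10 intestinal epithelium genes only *Fabp2* and *Anpep* reached 1 FPKM in liver, at 38.9 and 46.0, while the defining *Vil1*, *Sis* and *Muc2* were at or below 0.02. The fetal genes were also low, with *Afp* at 0.480 and *H19* at 0.0989.

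*Gapdh*, often used as a reference, had 141 FPKM in liver and 927 in tibialis anterior muscle, *Actb* 57.9 in liver and 636 in small intestine, and *Tbp* 5.72 in liver with 2.85 to 8.45 elsewhere. Of the clock genes, *Per2* had 17.8 in liver and up to 22.4 in small intestine.

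For 92 genes (0.626%) liver and exactly 1 other tissue were both at least 10-fold above the remaining 5, and small intestine was that tissue for 77 of them. White adipose tissue was the partner for 9, brain for 5, BAT for 1 and heart and muscle for none. This tally moved with the constant added, since with 0.1 FPKM the partner was small intestine for 136, brain for 23, white adipose tissue for 14, BAT for 3 and heart for 2, and with 0.01 FPKM small intestine for 153, brain for 32, white adipose tissue for 28, muscle for 5, BAT for 4 and heart for 2. After rescaling to TPM the partner was small intestine for 100, brain for 13, white adipose tissue for 13 and BAT for 1. The intestinal set of 77 included *Fabp1*, *Apoa1*, *Cyp3a11* and *Apoc3*, an inhibitor of lipoprotein clearance with 583 FPKM in liver and 61.7 in small intestine. Promoters were found for 66 of the 77 genes of the intestinal set, with 78 starts. The FOXA letters were in 20.5% of these starts, against 7.29% of all promoters. The HNF1 and HNF4 letters were each in 4 starts (5.13%), against 0.737% and 0.807% of all promoters. The mean GC content was 48.2% for this set and 53.2% for all promoters, and its part in these shares was not tested.

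With white adipose tissue liver shared *Cyp2e1* and *Rbp4*, already given, *Gsta3*, a glutathione transferase, at 768 FPKM in liver and 93.0 in white adipose tissue, *Igfbp4*, which binds insulin-like growth factors, at 422 and 223, and *Inmt*, an N-methyltransferase, at 401 and 217. In the WT cold iWAT libraries these had 47.6 ± 1.55 for *Gsta3*, 398 ± 196 for *Igfbp4* and 87.4 ± 16.3 for *Inmt* (SD, n = 3). The genes shared with brain included *Ttr*, *Itih3*, a hyaluronan-associated protein, at 177 and 16.2, *Nrn1*, neuritin, at 149 and 49.7, and *Slc1a2*, the glutamate transporter of glia and pericentral hepatocytes, at 35.9 and 192. The exons of *Nrn1* and of *Slc1a2* each overlap those of another gene. The single gene shared with BAT was *Kng2*, a kininogen, with 98.8 in liver, 45.3 in BAT and at most 1.22 in the rest, and the 3 WT cold BAT libraries had 59.4 ± 5.56.

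At least 4-fold lower in liver than in every other tissue were 43 genes (0.293%). This count was 353 with 0.1 FPKM added, 83 after rescaling to TPM, 21 under quantile normalization, 71 without tibialis anterior muscle, 73 without brain and 100 without small intestine. Their median level in liver was 0.745 FPKM, and 4 were listed at 0 there. *Oxct1* and *Pkm* led, followed by *Sparcl1*, a matrix protein, with 5.92 FPKM in liver and 1356 in brain, 304 in white adipose tissue, 204 in brown adipose tissue, 169 in heart, 111 in small intestine and 104 in tibialis anterior muscle. *Tspan13* and *Tspan3*, tetraspanins, had 0.428 and 1.25 in liver and at least 19.999 and 31.2 in the others. *Cd63*, another member of that family and a marker of late endosomes, had 2.39 in liver and at least 21.0 elsewhere. *Cpe*, carboxypeptidase E of secretory granules, had 0.304 in liver and 570.4 in brain. *Slc25a4*, the ATP/ADP exchanger of heart and muscle mitochondria, had 3.10 in liver and 1609 in muscle. *Clec3b*, tetranectin, was listed at 0 in liver and had 172 in white adipose tissue.

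The liver-led genes, which include some of Kupffer and endothelial cells, had mostly low levels in the other libraries. Of the 288 liver-led genes, white adipose tissue was the next highest tissue for 116, small intestine for 54, muscle for 43, heart for 37, brain for 26 and BAT for 12. The median level of these genes, as a percent of that in liver, was 0.163 in white adipose tissue, 0.0475 in muscle, 0.0152 in heart, 0.00661 in small intestine, 0.00249 in BAT and 0 in brain. *Alb* in the 3 WT cold iWAT libraries was 27.0, 16.6 and 8.50 FPKM, and in the 3 WT cold BAT libraries it was at or below 0.0492. *Mup3* was 23.1, 5.14 and 2.96 in the same iWAT libraries. Over all genes the median ratio of the highest to the lowest iWAT library was 1.22. Where these transcripts came from was not tested.

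The liver-led genes lay close to each other in the genome more often than other genes. Another liver-led gene within 100 kb was found for 127 of the 288 (44.1%), against 755 of the 14391 others (5.25%). On GRCm38, 17 runs of at least 3 such genes held 69 of them. Several runs were families of related copies, among them runs of 6, 4, 4 and 3 Mup genes on chromosome 4. The split of fragments between near-identical copies is uncertain, and the part of such families in the 44.1% was not tested. The longest held 10 genes on chromosome 12 (103614786 to 104086724), the 5 alpha-1-antitrypsins with *Serpina6*, *Serpina10*, *Serpina11* and 2 pseudogenes, and all 10 genes tested in that interval were liver-led. *Fgg*, *Fga* and *Fgb* formed 1 run on chromosome 3 (83007724 to 83049863). The cluster of *Ahsg*, *Fetub*, *Hrg* and *Kng1* on chromosome 16 (22891277 to 23224446) was not uniform, since it also holds *Adipoq*, the adipocyte hormone adiponectin, with 0.388 FPKM in liver and 1699 in white adipose tissue.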

How the data were processed

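RNA-Seq was performed on poly(A)-selected RNA with a random-primed kit. As the methods and the submitters' processing notes give it, the authors filtered reads with fastp and bowtie2, used HISAT2 2.1.0 for unstranded alignment to mm10 (GRCm38), and obtained FPKM from StringTie. The deposited values are FPKM per gene, with no fragment counts, so no counting interval is given. Of 55860 lines, 287 repeated a gene and were used once. Genes with a mean of at least 1 FPKM over the 7 libraries were tested, and ratios were taken after adding 1 FPKM. Positions and exon overlaps came from GENCODE annotation of GRCm38, which matched 14679 of the 14692 genes tested, and promoters from RefSeq. The overlaps stated may not cover every gene named. The calls were tested on simulated data. Python 3.11.15, numpy 2.4.6 and pandas 2.3.3 were used.

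The comparison, the 41 gene lists and the motifs were chosen with earlier results of these data known. Genes named are members of those lists, the 20 most abundant in liver, the 20 with the highest ratio in each direction, the 5 most abundant shared with each tissue, and Mup genes. Alternatives were other pseudocounts, filters, scalings and folds, leaving out each other tissue, and leaving out mitochondrial genes. *Cyp2c44* was not found among the symbols. Some list members are counted but not reported here by name. Within-tissue spread came from the FPKM of 3 WT cold libraries each of iWAT and BAT. The MCK-Musclin columns were not used, nor were the columns of the iWAT table that hold the authors' own fold changes and p-values.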

Additional observations from a re-analysis of the deposited data

How the results depend on the processing

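The count of 288 genes at least 10-fold higher in liver stayed between 223 (20-fold) and 405 (without small intestine) under all alternatives, within 1.5 times of its value. All 288 remained under median-ratio scaling, while 284 remained after rescaling to TPM, 281 after quantile normalization and 245 with a mean of at least 5 FPKM. All 288 also remained under both other pseudocounts, without the filter and when any other tissue was left out. The rule fixes that outcome in advance, since those settings can only keep or add genes, so it is no measure of stability. The count of 43 genes at least 4-fold lower moved further. It became 353 with 0.1 FPKM added and 727 with 0.01 FPKM, 83 after rescaling to TPM, 26 under median-ratio scaling and 21 under quantile normalization, of which 41, 20 and 16 were among the 43. It was 71 without tibialis anterior muscle, 73 without brain and 100 without small intestine, 329 at 2-fold and 7 at 8-fold. Here too a smaller constant, a left-out tissue or a lower fold can only keep or add genes. Those counts are therefore no measure of stability. The added constant decides calls for genes near 1 FPKM, since all such ratios shrink with it. The count of 92 genes shared with 1 other tissue became 178 with 0.1 FPKM added and 224 with 0.01 FPKM. It was 127 after rescaling to TPM, 89 under median-ratio scaling and 84 under quantile normalization. Relative to the deposited values, the median log2 ratio of liver to the median other tissue moved by -0.09 after rescaling to TPM, 0.28 under median-ratio scaling and 0.22 under quantile normalization. Without mitochondrially encoded genes the plasma carrier list held 13.57% of the liver sum and the lipoprotein list 8.58%, because the total is then smaller. No paired analysis was possible because each tissue has 1 library and no result comes from a test. With 1 library per tissue and no counts, neither replicate error nor depth can be set against any difference.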

Other observations

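Of the 288 liver-led genes, 131 were in none of the gene lists, and those named here were chosen after their values were seen. Besides 19 Mup genes, the pseudogene *Mup-ps19* among them, they included *Pzp*, a broad protease inhibitor of plasma, with 1487 FPKM in liver and at most 1.72 in white adipose tissue, *Vtn*, the adhesive plasma protein vitronectin, with 560.4 and at most 17.0 in brain, and *Pon1*, an esterase of high-density lipoprotein, with 287 and at most 12.8 in brown adipose tissue. Enzymes of purine and glyoxylate breakdown were in the same set. *Uox*, the urate oxidase that humans lack, had 479 in liver and *Hao1*, which makes glyoxylate in peroxisomes, had 188. *Sord*, which turns sorbitol to fructose, had 794 in liver and at most 65.8 in heart.

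Transporters and immune genes were also among them. The amino acid transporters *Slc38a3* and *Slc38a4* had 337 and 285 FPKM in liver, and *Aqp9*, the channel by which hepatocytes take up glycerol, had 73.4. *Ttpa*, the carrier of vitamin E, had 96.6. *H2-Q10*, a secreted class I molecule, had 859.8 in liver and at most 24.9 in brown adipose tissue. *Gjb1*, the connexin of hepatocyte gap junctions, had 142 and at most 12.9 in small intestine.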
